A study of Mus musculus with 4 samples.

Results

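The control libraries of a mouse macrophage RNA-seq series were examined on their own, to describe which genes these cells used and at what level. They were chosen by the genotype label WT and make up 2 of the 4 libraries of the series, called WT replicate 1 and WT replicate 2 here. Per the labels, the cells were macrophages cultured in DMEM with serum, and no treatment is named. Per the study's text, they were bone marrow-derived macrophages (BMDMs) of G3bp1 f/f mice, in which both copies of G3bp1 carry the target sites of Cre recombinase and which served as controls for mice that delete the gene under the Lyz2 promoter. So the controls carried the floxed allele, and their age and the number of mice behind each library are not given in the sources used here. Nothing states that the libraries came from separate mice or cultures, and the spread between them may be partly technical.

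BMDMs are grown from marrow precursors with a growth factor that signals through the receptor Csf1r. They are professional phagocytes: they take up dying cells and microbes, digest them in lysosomes rich in cathepsins, export or store the lipid, and present peptides on MHC molecules. At rest they hold the sensors of microbial products but little of the cytokines and chemokines that these sensors switch on through NF-kB, a family of transcription factors.

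The libraries held 17004167 and 16926884 gene counts. Gene level is given as the deposited FPKM (fragments scaled by gene length and by the library total), with the value of WT replicate 1 before that of WT replicate 2. The libraries were not alike. Of the 11148 genes with a mean count of at least 20, 859 (7.71%) were more than 2-fold higher and 590 (5.29%) more than 2-fold lower in replicate 2, together 13% of the genes compared. The genes furthest apart were inflammatory: Il1b, which encodes the cytokine interleukin-1 beta, had 2 counts in replicate 1 and 6783 in replicate 2, and Tnf, which encodes tumour necrosis factor, had 122 and 21261. The labels name no treatment for either library, and the libraries stand far apart in these genes, so levels below are given for both. Whether the cells, the culture or the library differed cannot be told apart.

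The 4 genes that mark the cells were all present. Lyz2 (ENSMUSG00000069516, chromosome 10 from 117277334 to 117282274 of GRCm38, minus strand), which encodes lysozyme, had 16479 and 13887 FPKM and the highest mean of all genes, 15183 ± 1833 FPKM (SD, n = 2). Cd68 (chromosome 11 from 69664213 to 69666153), a glycoprotein of late endosomes and lysosomes, had 1513 and 1503 FPKM and rank 30 by mean FPKM. Adgre1 (chromosome 17 from 57358686 to 57483529), which encodes the F4/80 antigen, had 96.3 and 213 FPKM and rank 325, and Csf1r had 63.2 and 101 FPKM and rank 593. Lyz2 and Cd68 differed little between the libraries, whereas Adgre1 was above 2-fold higher in replicate 2, with a log2 ratio of 1.14. Of the 16 macrophage marker genes listed, 15 reached 1 FPKM and the exception was Cx3cr1, a chemokine receptor of monocytes and microglia, with 11 and 7 counts.

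The gene whose alleles were floxed was also present in both libraries. G3bp1 (ENSMUSG00000018583, chromosome 11 from 55469685 to 55504838, plus strand), which encodes the scaffold protein of stress granules, had 1691 and 2875 counts and 13.8 and 23.6 FPKM. Its log2 ratio of replicate 2 to replicate 1 was 0.77 (95% counting interval 0.69 to 0.86). Its paralogue G3bp2 had 6.24 and 6.58 FPKM and a log2 ratio of 0.08 (interval -0.02 to 0.18). Qk, which encodes the RNA-binding protein Quaking, had 17.3 and 14.6 FPKM. Counting intervals here cover counting error alone, since the reads carried no molecular identifiers, and do not cover the spread between cultures.

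Transcript abundance was concentrated in few genes. Of the 34745 genes in the table, 15643 and 15468 had a count, and 9144 reached a mean of 1 FPKM. At 10 FPKM there were 3300 genes, at 100 FPKM 485 genes and at 1000 FPKM 51 genes. The 10 most abundant genes held 23.2% of summed FPKM in replicate 1 and 22.1% in replicate 2, and the 100 most abundant held 53.3% and 49.96%. As few as 79 genes in replicate 1 and 101 genes in replicate 2 made up 50% of the total. Abundance was thus somewhat more concentrated in replicate 1, and 85 of the 100 most abundant genes were shared.

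**Figure D1:**
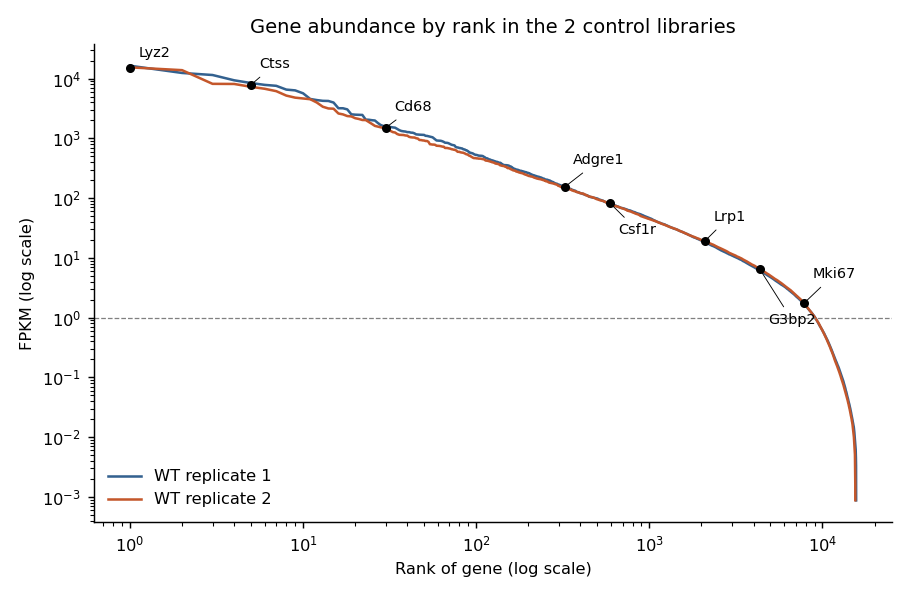
FPKM of every gene with a count (y axis, log scale) against its rank within the library (x axis, log scale) for both control libraries, with black points at the mean FPKM of 8 named genes and a dashed line at 1 FPKM. The curves of the libraries lie close together, from Lyz2 at rank 1 by mean FPKM through Cd68 at rank 30 and Csf1r at rank 593 to Mki67 at rank 7848.

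The 20 genes with the highest mean FPKM were led by lysosomal and iron-storage genes. After Lyz2 came Fth1, the heavy chain of the iron store ferritin, with 12467 and 15476 FPKM, and its light chain Ftl1 had 7593 and 6180 FPKM at rank 7. The lysosomal proteases Ctss (8459 and 7308 FPKM), Ctsd (7877 and 6779), Ctsl (6369 and 4530) and Ctsb (4573 and 4668) were all among the 11 highest. Psap, the precursor of the saposins that assist lipid digestion, had 4235 and 3991 FPKM. B2m, the light chain shared by MHC class I molecules, had 5691 and 5211 FPKM.

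Other genes among these 20 were the mitochondrial cytochrome oxidase genes mt-Co1 (9392 and 8158 FPKM) and mt-Co3 (6566 and 4813), the galectins Lgals3 (4385 and 3173) and Lgals1 (3197 and 2334), and Cstb, an inhibitor of cathepsins (3985 and 3142). Cd63, a tetraspanin of lysosomes, had 3064 and 2116 FPKM. Gpnmb, a glycoprotein of lipid-laden phagocytes, had 2532 and 2614 FPKM, the ribosomal stalk gene Rplp1 had 3201 and 1882, and the actin-severing gene Cfl1 had 2484 and 2524. The remaining members were Gm10116, with 4260 and 3393 FPKM, and Tpt1-ps3, annotated as a processed pseudogene of Tpt1, with 11518 and 8194 FPKM. All 20 were within 2-fold between the libraries. Tpt1-ps3 had 101650 and 71988 counts against 21507 and 14381 for Tpt1, and how the authors' counting split reads between such near-identical copies is uncertain.

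Pseudogenes are part of this picture: 14 of the 100 genes with the highest mean FPKM were annotated as pseudogenes. All 3003 pseudogenes of the table together held 8.19% and 6.66% of summed FPKM and 2.50% and 1.97% of counts, which are not scaled by length. The other 86 were protein-coding. FPKM also depends on the length used. The length that the deposited values imply matched, within 1%, the sum of all distinct annotated exons for 6060 of 8963 genes (67.6%), which counts overlapping exons of alternative transcripts more than once. It was a median 1.80 times the length of the principal transcript, and more than 2 times for 3765 of 8756 genes, so genes with many annotated transcripts are understated.

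A second scale was therefore computed from the same counts with the principal transcript length. On this scale Ftl1 had the highest mean, 20105, followed by Lyz2 with 14606, Ctsd with 13344 and Ctss with 10455. Gapdh, a glycolytic enzyme, moved from a mean of 16.2 on the deposited scale to 98.4, and Actb, cytoplasmic actin, from 273 to 840. Ctsl moved the other way, from 5450 to 1741. Tpt1-ps3 has no principal transcript and is absent from this scale.

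Genes of the lysosome were among the most abundant functional classes. All 29 lysosomal membrane and V-ATPase genes reached 1 FPKM and 16 reached 100, with a median of 122 FPKM that corresponds to percentile 97.6 of genes with a count. Lamp1, a major glycoprotein of the lysosomal membrane, had 1528 and 1621 FPKM, and Atp6v0d2, a subunit of the proton pump that acidifies the lysosome, had 776 and 456. Of 36 lysosomal hydrolases and their cofactors, 35 reached 1 FPKM, with a median of 58.0. Hexa, which degrades gangliosides, had 1072 and 926 FPKM, Npc2, which hands over cholesterol, had 917 and 750, and Lipa, the acid lipase, had 661 and 540. Sgsh, a heparan sulfatase, was the exception under 1 FPKM, with 133 and 163 counts.

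The 22 cathepsins and cystatins were split. They held 9.17% and 8.47% of summed FPKM through 10 genes above 100 FPKM, including Ctsz (2498 and 2369 FPKM), the cystatin Cst3 (1602 and 1062) and Ctsk, the collagen-degrading cathepsin of osteoclasts (892 and 753). Another 8 members were under 1 FPKM, among them Ctse with 59 and 41 counts, Ctsw with 1 and 3, the neutrophil protease Ctsg with 1 and 0, and Stfa2 and Stfa3 with no count. Between the libraries, 29 of 29 lysosomal membrane genes, 34 of 36 hydrolases and 14 of 15 cathepsins and cystatins compared were within 2-fold, against 87.0% of all genes compared. The hydrolases outside that range were the acid phosphatases Acp2 (20.6 and 47.9 FPKM) and Acp5 (126 and 259).

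**Figure D2:**
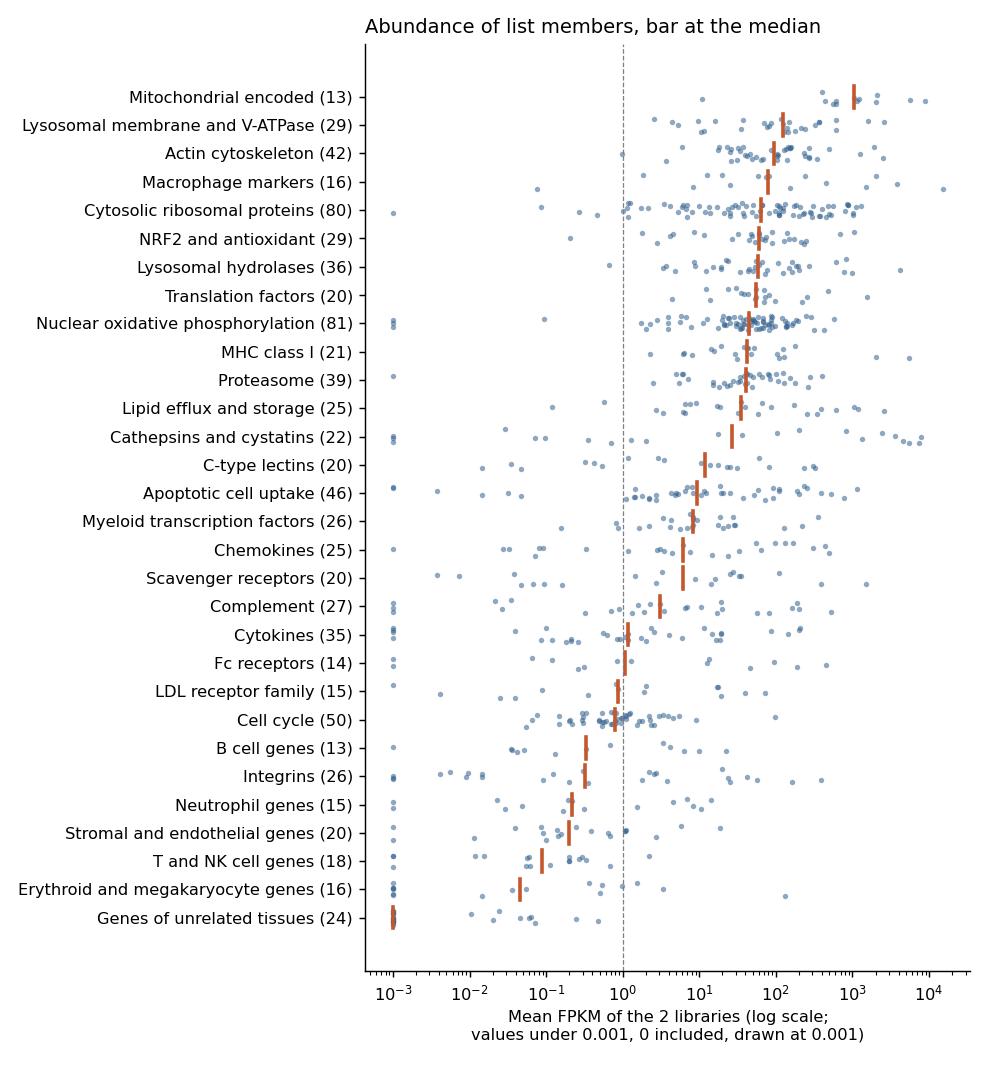
Mean FPKM over both libraries (x axis, log scale, with values under 0.001 drawn at the left edge) for each member of 30 gene lists (y axis, number of members in parentheses), with a bar at the median of each list and a dashed line at 1 FPKM. Medians run from 1046 FPKM for genes of mitochondrial DNA and 122 for lysosomal membrane genes down to 0.0454 for erythroid and megakaryocyte genes and 0 for genes of unrelated tissues.

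Of 46 genes for the uptake of dying cells, 40 reached 1 FPKM. The 9 bridging genes, whose products coat the target, had a median of 109.9 FPKM, and the 20 receptors had a median of 2.74. At the RNA level the median bridging gene was thus far above the median receptor, and protein was not measured. The complement C1q chains, which coat apoptotic cells, had 205 and 197 FPKM (C1qa), 538 and 515 (C1qb) and 205 and 177 (C1qc). Anxa1, a phospholipid-binding annexin, had 907 and 660 FPKM. Among receptors, the lipid scavenger Cd36 had 408 and 375 FPKM, Trem2 had 310 and 200, Mertk had 9.19 and 7.14, and Axl had 2.49 and 7.40. The phosphatidylserine receptor Timd4 had 5 and 103 counts, and Tyro3 had 6 and 4. Adgrb1 and Havcr1, further phosphatidylserine receptors, had no count. The oxidase subunit Cyba had 1156 and 1149 FPKM, while its partner Cybb had 91.0 and 379 FPKM, more than 2-fold apart.

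Lrp1 (ENSMUSG00000040249, chromosome 10 from 127538161 to 127621148, minus strand), an endocytic receptor of the LDL receptor family that also binds coated apoptotic cells, had 6963 and 6523 counts. At 19.6 and 18.4 FPKM it lay at percentile 87.5 of genes with a count, and its log2 ratio between the libraries was -0.09. Within its family Lrp12 was higher, with 62.5 and 81.0 FPKM, as was the chaperone Lrpap1, with 41.5 and 36.6. Of the 15 family genes, 7 reached 1 FPKM, and Vldlr (6 and 6 counts), Lrp2 (11 and 12) and Lrp3 (0 and 1) were near 0. Igf2r and Dync1h1, which the study treats together with Lrp1 as stress granule transcripts, were also present. Igf2r, which sorts lysosomal enzymes, had 23.5 and 31.0 FPKM, and Dync1h1, the heavy chain of dynein, had 5.81 and 9.32.

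Surface receptors ranged widely. Among 20 scavenger receptors 13 reached 1 FPKM, with Msr1 at 57.8 and 163 FPKM and Mrc1, the mannose receptor, at 21.1 and 28.6, whereas Cd163, the haemoglobin receptor, had 5 and 4 counts. Of 14 Fc receptor genes 7 reached 1 FPKM: the shared gamma chain Fcer1g had 437 and 458 FPKM, Fcgr3 235 and 146, Fcgr4 121 and 71.3, and the inhibitory Fcgr2b 35.2 and 57.0. Fcgr1, the high-affinity IgG receptor, was lower in replicate 2, with 18.2 and 6.84 FPKM. C-type lectins were led by Clec7a, the beta-glucan receptor Dectin-1, with 353 and 289 FPKM, and by Clec4d with 241 and 365. The signalling adaptor Tyrobp, used by Trem2 and related receptors, had 2472 and 1537 FPKM. Lilrb4a (475 and 995 FPKM) and Lilr4b (298 and 648) were both more than 2-fold higher in replicate 2, and they are close paralogues that may share reads.

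Integrins and metalloproteinases showed a few high members over many near 0. Of 26 integrin genes 12 reached 1 FPKM, and the leukocyte beta chain Itgb2 was highest, with 351 and 422 FPKM. Itgax had 47.7 and 66.7 FPKM. The symbol Itgam names a pair of overlapping genes in the table, with 24.0 and 16.2 FPKM for one entry and 19.6 and 46.6 FPKM for the other, so its level is uncertain. Mmp12, the macrophage elastase, had 651 and 586 FPKM, far above the other matrix metalloproteinases: Mmp14 had 3.57 and 47.5, Mmp13 had 7.45 and 33.3, and Mmp2 had 0 and 2 counts.

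Among myeloid transcription factors 23 of 26 reached 1 FPKM. Id2 had 262 and 450 FPKM and Cebpb 137 and 305. Spi1, which encodes the lineage factor PU.1, had 84.8 and 174 FPKM. Cebpa (30.7 and 10.6 FPKM) and Pparg (33.7 and 13.5) were higher in replicate 1, and Nr1h3 (10.8 and 26.6) was higher in replicate 2. In all, 3 of the 26 were more than 2-fold higher and 4 more than 2-fold lower in replicate 2, against 7.71% and 5.29% of all genes compared. Genes of particular tissue macrophages were mostly low: 9 of 16 were under 1 FPKM, with Sall1, Car4 and Clec4f at no count, while Folr2 had 1009 and 741 counts and Vsig4 had 20.6 and 17.9 FPKM.

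Genes of mitochondrial DNA, the ribosome, the proteasome and actin were high, with few exceptions. The 13 genes of mitochondrial DNA had a median of 1046 FPKM and all were within 2-fold between the libraries, against 87.0% of all genes compared. Of 80 cytosolic ribosomal protein genes 76 reached 1 FPKM, with Rpl8 at 1274 and 942 FPKM. The exceptions were Rpl3l (2 and 3 counts) and Rpl10l (no count), which are paralogues of restricted expression, and Rpl9 (85 and 84 counts) and Rps13 (37 and 39), where retrocopies may take reads. Of 39 proteasome genes 38 reached 1 FPKM, and the exception was Psmb11, the thymus subunit, with no count. Of 42 actin cytoskeleton genes 39 reached 10 FPKM, led by Cfl1 and by Tmsb4x (2052 and 1747 FPKM), which binds actin monomers.

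Glycolysis was led by Pkm (498 and 510 FPKM), Pgam1 (357 and 339) and Ldha (295 and 269), and 25 of 27 genes compared were within 2-fold, close to the 87.0% of all genes compared. Lipid handling was led, after Gpnmb, by the lipid carriers Apoe (1441 and 906 FPKM) and Fabp5 (1332 and 745) and the droplet protein Plin2 (465 and 218). Synthesis of cholesterol and fatty acids was lower: none of its 34 genes reached 100 FPKM, and Fasn had 62 and 89 counts and Scd1 35 and 46. Iron genes other than ferritin were far below it, with Hmox1, which degrades haem, at 187 and 234 FPKM and the iron exporter Slc40a1 at 139 and 30 counts. Of the antioxidant genes, Txn1 had 1054 and 1036 FPKM and Prdx1 655 and 728.

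Genes of cell division were low. Of 50 cell cycle genes 19 reached 1 FPKM, with a median of 0.801. Pcna, the sliding clamp of DNA replication, was an exception with 119 and 72.8 FPKM, and Mki67 had 88 and 514 counts, whereas Top2a had 133 and 122 and Ccnb1 55 and 25. Among 38 stress granule protein genes 36 reached 1 FPKM, with Ybx1 at 207 and 181 FPKM, Ddx3x at 50.2 and 67.8 and Pabpc1 at 34.5 and 43.6. Of the 27 splicing regulators listed 22 did, with Hnrnpc at 44.2 and 50.6 FPKM, and Nova1 and Elavl4, regulators of neurons, had at most 1 count.

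Markers of other cell types were measured in the same way. The T and NK cell list summed to 6.35 and 3.19 FPKM over 18 genes, with 17 under 1 FPKM, Cd28 at 400 and 114 counts, and Cd3e and Prf1 at no count. The 15 neutrophil genes summed to 45.0 and 49.7 FPKM, of which S100a8 had 14.0 and 14.5, while Lcn2, which inflammatory signals also induce in other cells, had 9 and 247 counts and Elane and Mpo had no count. The 20 stromal and endothelial genes summed to 33.0 and 33.5 FPKM, with Dcn, a matrix proteoglycan, at 18.6 and 18.9. The 12 mast cell and basophil genes summed to 93.9 and 80.1 FPKM, with the mast cell proteases Tpsb2 at 36.3 and 30.7, Cma1 at 30.1 and 21.8 and Cpa3 at 18.8 and 19.4. Of the 7 compared Hdc (14 and 49 counts) and Kit (25 and 50) were more than 2-fold higher in replicate 2, against 7.71% of all genes compared. The 13 B cell genes summed to 45.3 and 49.5 FPKM, and the highest member, not named here, had a mean of 22.4. It was the only 1 to reach a mean of 10 FPKM. Ighm had 9.33 and 10.4 FPKM, Cd79a 3.31 and 4.87, and Pax5 6 and 6 counts. Most of these sums differed little between the libraries. The T and NK cell list was the furthest apart. Of its 3 genes compared 1, Cd28, was more than 2-fold lower in replicate 2, against 5.29% of all genes compared. Fewer cells of a type cannot be told apart from less RNA per cell in bulk samples.

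Of the 8 eosinophil genes Siglecf was the highest, with 1.74 and 1.48 FPKM, and Epx and Prg2 had no count. Erythroid and megakaryocyte genes summed to 166 and 109 FPKM almost wholly through Pf4, a chemokine that macrophages also make, with 158 and 103 FPKM, and Hbb-bs, a beta-globin, had 3.73 and 2.96. Of 11 progenitor genes 10 were under 1 FPKM and Cd48, present on many leukocytes, had 170 and 148. Of the 15 dendritic cell genes Bst2, an interferon-responsive gene of many cells, had 162 and 147 FPKM, and Xcr1 and Siglech had no count. Of the 8 compared 3 were more than 2-fold higher in replicate 2, namely Ccl22 (24 and 269 counts), Fscn1 (42 and 143) and Zbtb46 (8 and 35), against 7.71% of all genes compared. All 24 genes of unrelated tissues were under 1 FPKM, and together they had 0.738 and 1.28 FPKM. A count of 0 allows a level of up to 0.176 and 0.177 CPM, counts scaled by the library total, in these libraries.

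Agreement between the libraries was then examined across genes. Over the 11148 genes compared, the median log2 ratio of replicate 2 to replicate 1 was -0.02, 9699 genes (87.0%) were within 2-fold and 7639 (68.5%) within 1.5-fold. Spearman's rho of FPKM across these genes was 0.941, a description across genes, which are not independent replicates. The counting interval left out 0 for 7463 genes (66.9%), so the libraries differed by far more than counting error, and the common biological coefficient of variation from edgeR was 0.365. Of genes with 20 to 100 counts 76.9% were within 2-fold, as were 89.4% of those with 100 to 1000 counts and 90.2% of those with 10000 or more, so agreement was lowest in the shallowest genes and nearly level above them. The ratio moved with gene length, from a median log2 of -0.28 in the shortest 20% of genes to 0.15 in the longest 20%.

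**Figure D3:**
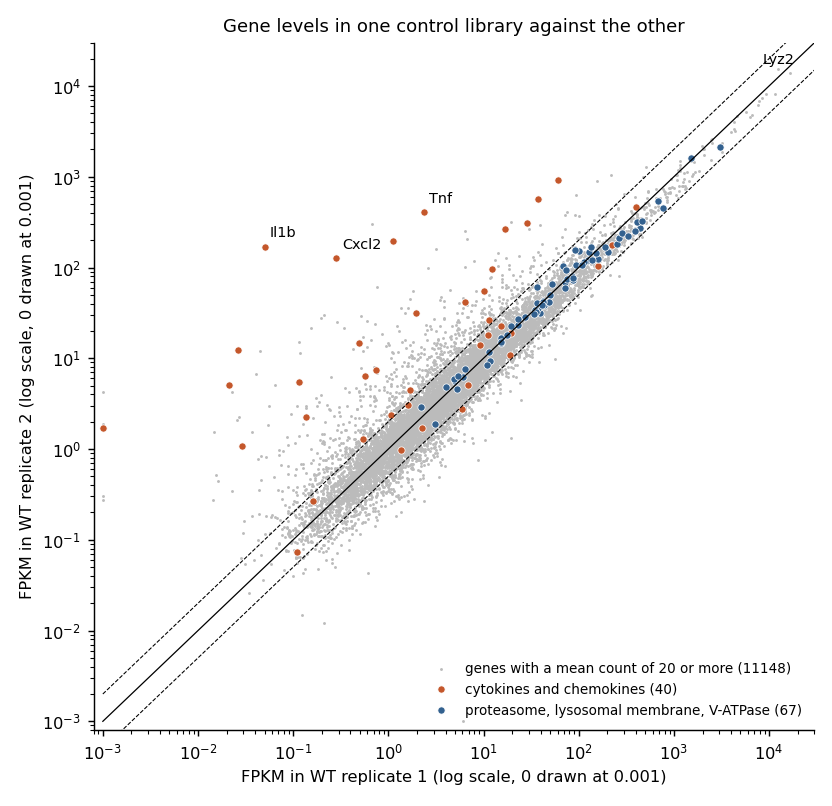
FPKM in WT replicate 2 (y axis, log scale) against FPKM in WT replicate 1 (x axis, log scale) for 11148 genes with a mean count of 20 or more, with the solid line at equality and dashed lines at 2-fold. Proteasome and lysosomal membrane genes (blue) stay between the dashed lines, and many cytokine and chemokine genes (orange), Il1b, Tnf and Cxcl2 among them, lie far above them.

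The difference was uneven in direction at large folds. Above 4-fold, 299 genes were higher and 58 lower in replicate 2, and above 16-fold there were 69 and 2. Among lists with at least 10 genes compared, the median log2 ratio was largest for chemokines, at 3.41, with 14 of 19 genes more than 2-fold higher, followed by NF-kB and immediate early genes (1.19, 18 of 33), cytokines (1.16, 11 of 21) and interferon-stimulated genes (0.87, 17 of 34). In each of these the share exceeded the 7.71% of all genes compared. Because single libraries are compared, these are differences between the libraries and carry no test.

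Chemokines furthest apart were the neutrophil attractants. Cxcl2 had 25 and 11011 counts, or 0.285 and 126 FPKM, a log2 ratio of 8.79 (interval 8.23 to 9.42). Cxcl1 had 54 and 9388 counts, and Cxcl3 had 2 and 935, a log2 ratio of 8.88 (interval 7.02 to 11.92). The monocyte attractants Ccl3 (37.6 and 570 FPKM), Ccl4 (28.7 and 306), Ccl9 (60.2 and 922) and Ccl2 (12.3 and 97.5) were present in replicate 1 and higher in replicate 2. Ccl6, another CC chemokine, had 403 and 468 FPKM and Pf4 had 158 and 103, so some abundant members were within 2-fold. The median chemokine gene therefore had 0.564 FPKM in replicate 1 and 10.9 in replicate 2.

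The sequence before the start of these genes is shown because Cxcl1 and Cxcl2 moved together and lie next to each other in one cluster. RefSeq promoters of GRCm38.p6, 250 bases before the annotated start, were searched on both strands for a kappaB-like motif, read as GGG, any 2 bases and TTTCC, and matches are in capitals. The Cxcl1 stretch is chr5:90890995-90891244 on the plus strand, with matches that begin 89 and 71 bases before the start, of which the farther is on the minus strand and is printed as read on the plus strand. The Cxcl2 stretch is chr5:90903649-90903898 on the plus strand, with matches 97 and 78 bases before the start.
Cxcl1: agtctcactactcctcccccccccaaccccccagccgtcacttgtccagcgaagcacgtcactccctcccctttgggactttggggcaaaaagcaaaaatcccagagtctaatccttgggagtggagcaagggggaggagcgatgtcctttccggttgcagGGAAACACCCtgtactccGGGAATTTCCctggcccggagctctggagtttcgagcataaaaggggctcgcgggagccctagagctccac
Cxcl2: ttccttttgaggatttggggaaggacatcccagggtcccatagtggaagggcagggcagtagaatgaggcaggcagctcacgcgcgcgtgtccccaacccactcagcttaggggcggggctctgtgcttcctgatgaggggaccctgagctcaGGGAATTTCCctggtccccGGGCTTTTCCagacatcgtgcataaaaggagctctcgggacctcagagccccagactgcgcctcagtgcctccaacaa
This motif occurred in 1.65% of the promoters of 27025 genes, in 1.84% of those of the 8785 compared genes with a promoter entry, in 22 of 633 (3.48%) of those more than 2-fold higher in replicate 2 and in 13 of 214 (6.07%) of those more than 4-fold higher. The other promoter motifs searched also had higher shares among these genes. An ISRE-like motif, TTTC, any 2 bases and TTTC, was in 3.46% of all promoters, 3.45% of those compared, 6.16% of those more than 2-fold higher and 9.81% of those more than 4-fold higher. The PU.1-like letters GAGGAAGT were in 2.79%, 3.31%, 4.58% and 6.07%. Of the 100 genes with the highest mean FPKM, 60 had a promoter entry. Their shares were 5% for the kappaB-like, 10% for the ISRE-like and 8.33% for the PU.1-like motif. Higher shares were therefore not particular to genes higher in replicate 2. Among genes more than 2-fold lower the kappaB-like motif was in 7 of 468, the ISRE-like in 20 (4.27%) and the PU.1-like in 19 (4.06%), the latter pair also above their shares among compared genes. A match is a stretch of letters and not a shown binding site, and these shares carry no test.

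The median cytokine gene had 0.243 FPKM in replicate 1 and 1.70 in replicate 2, and 10 of the 21 compared were within 2-fold. Il1b, with 2 and 6783 counts, had the largest log2 ratio of the genes with a mean count of at least 100, 11.73 (interval 9.88 to 14.78). Tnf had 2.36 and 412 FPKM, a log2 ratio of 7.45. Il1a had 16.9 and 268 FPKM, Il12b, a subunit of interleukin-12, 1 and 241 counts, Il12a 0 and 121, and Il6 2 and 74. The growth factor Igf1 (19.5 and 19.2 FPKM) was nearly equal, and Mif (226 and 179) was lower by less than 2-fold. Il10, an anti-inflammatory cytokine, had 4 and 4 counts, and Ifng, Il4, Il5 and Il13, cytokines of lymphocytes, had none.

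The promoters of Il1b and Tnf held no match to the kappaB-like motif in this stretch, and each held a TATAAA box, shown in capitals. The Il1b stretch is chr2:129371140-129371389 on the minus strand, with the box 31 bases before the start, and the Tnf stretch is chr17:35202008-35202257 on the minus strand, with the box 29 bases before the start. Of all 27025 promoters 14.3% held these letters on either strand, as did 7.52% of those of compared genes and 13.6% of those more than 4-fold higher in replicate 2.
Il1b: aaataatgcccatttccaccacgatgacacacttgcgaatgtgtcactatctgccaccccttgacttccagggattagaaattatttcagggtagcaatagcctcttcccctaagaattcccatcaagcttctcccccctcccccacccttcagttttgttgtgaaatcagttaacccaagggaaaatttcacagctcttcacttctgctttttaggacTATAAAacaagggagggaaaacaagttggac
Tnf: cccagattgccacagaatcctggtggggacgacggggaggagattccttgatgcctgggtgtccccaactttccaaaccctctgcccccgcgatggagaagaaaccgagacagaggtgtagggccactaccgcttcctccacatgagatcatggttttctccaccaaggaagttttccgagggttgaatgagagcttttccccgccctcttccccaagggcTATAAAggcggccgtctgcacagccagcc

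The regulators of NF-kB were higher in replicate 2 as well. Of the 15 genes of the NF-kB subunits and feedback regulators, 12 were more than 2-fold higher, against 7.71% of all genes compared. Nfkbia, the inhibitor that NF-kB itself induces, had 19.5 and 318 FPKM, Tnfaip3 1.31 and 19.9, and the subunits Nfkb2 4.48 and 56.5 and Relb 1.54 and 12.9. Nfkbiz, another induced regulator, had 73 and 3151 counts. Of the immediate early genes 6 of 18 compared were more than 2-fold higher, against the same 7.71%: Junb had 60.0 and 146 FPKM, and Atf3 and Jun were lower in replicate 2, with 196 and 118 and with 48.2 and 34.7.

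Sensors moved in part. Tlr2 had 6.75 and 206 FPKM and its coreceptor Cd14 75.8 and 409, whereas Tlr13 had 91.8 and 73.9. Ly96, the partner of the endotoxin receptor, had 566 and 280 counts, just over 2-fold lower. The inflammasome gene Nlrp3 had 0.537 and 17.3 FPKM and Mefv 0.856 and 18.6, and Pycard, the common adaptor, had 34.5 and 24.6. Of 24 cytosolic sensor genes 7 were more than 2-fold higher and 1, Nlrp1b (51 and 13 counts), more than 2-fold lower, against 7.71% and 5.29% of all genes compared, so the count of lower genes is near that of all genes. Of the interferon-stimulated genes, Gbp5 (26 and 3660 counts) and Gbp2 (308 and 4914) were furthest apart at high counts, and Ifit1 had 57 and 531 counts. Ifitm2 (360 and 401 FPKM) and Oas1a (34.2 and 32.6) were nearly equal, and Ifitm3 (355 and 268) was lower by less than 2-fold.

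In antigen presentation, 1 of 9 class II genes and 4 of 6 costimulation genes compared were more than 2-fold higher in replicate 2, with median log2 ratios of 0.28 and 2.37. Against the 7.71% of all genes compared, the class II count is near the background. H2-Ab1 had 65.6 and 84.7 FPKM, H2-Aa 67.4 and 81.9, and the invariant chain Cd74 92.4 and 126. Cd40 had 32 and 2038 counts, Cd83 39.3 and 292 FPKM, and Cd274, which encodes PD-L1, 33.9 and 121. In class I, H2-D1 (2065 and 2028 FPKM) and B2m (5691 and 5211) stayed level, H2-K1 had 143 and 210, and the H2-Q genes H2-Q4 (19.6 and 56.1), H2-Q6 (5.14 and 23.4) and H2-Q7 (3.02 and 9.51) were higher in replicate 2. These chains are close paralogues and their counts may share reads.

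**Figure D4:**
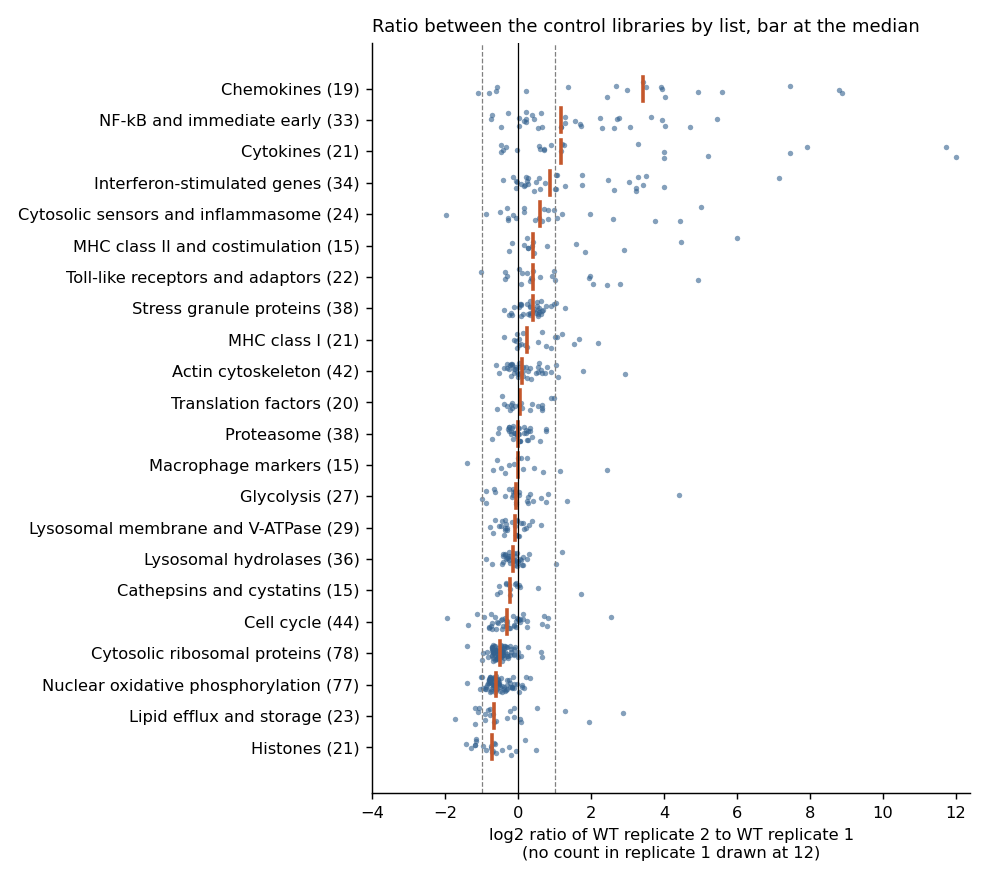
The log2 ratio of WT replicate 2 to WT replicate 1 (x axis) for each member with a mean count of at least 20 of 22 gene lists (y axis, number of members in parentheses), with a bar at the list median, dashed lines at 2-fold and the gene with no count in replicate 1, Il12a, drawn at 12. The chemokine median lies at 3.41, proteasome and lysosomal membrane genes lie wholly within 2-fold, and histones have the lowest median, -0.72.

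Other genes more than 2-fold higher in replicate 2 belonged to several classes. Irg1, also called Acod1, which makes itaconate from a citrate cycle intermediate, had 30 and 13227 counts (0.673 and 298 FPKM), a log2 ratio of 8.79. The mitochondrial superoxide dismutase Sod2 had 30.2 and 262 FPKM. Olr1, a receptor for oxidised LDL, had 14 and 1971 counts, Clec4e, the receptor Mincle, 171 and 13514, and Fpr1, a receptor for formyl peptides, 1 and 267. Slc2a6, a hexose transporter of the lysosome, had 1.49 and 31.5 FPKM, and Ehd1, a regulator of endosomal recycling, 2.64 and 99.9. Of the 47 endocytosis and Rab GTPase genes, 4 were more than 2-fold higher and 6 more than 2-fold lower in replicate 2. The shares over all genes compared were 7.71% and 5.29%. The lower genes included 5 of the 23 Rab GTPases. Of 17 alternative activation genes compared 6 were more than 2-fold higher in replicate 2 and none more than 2-fold lower, against 7.71% and 5.29% of all genes compared. Ccl17, a chemokine for T cells, had 1 and 48 counts and Tgm2, a transglutaminase, 18.3 and 95.4 FPKM, while Chil3 (66.1 and 60.9 FPKM) was nearly equal, Retnla had 28.7 and 15.9, and Ccl22 had 24 and 269 counts.

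The 10 genes furthest apart in the other direction, at a mean count of at least 100, were of mixed kinds. Gm20716 had 545 counts in replicate 1 and none in replicate 2, at least 181-fold lower, and it overlaps Adnp and Dpm1 on the same strand, so its count is uncertain. Fbxo32, a ubiquitin ligase subunit, had 2317 and 154 counts, a log2 ratio of -3.90, and Arhgap19 had 1450 and 124, a log2 ratio of -3.54. Tcp11l2 (729 and 87 counts), Lrrc14b (578 and 72), 1810011H11Rik (619 and 86), Fam214a (264 and 38), Sh2d1b1 (334 and 50), Zbtb42 (223 and 34) and Zfp395 (188 and 29) followed.

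Genes lower in replicate 2 also included Cxcr4, the chemokine receptor for Cxcl12, with 56.1 and 9.76 FPKM, Fabp4, a fatty acid carrier, with 265 and 80.0, and Idh1, the cytosolic isocitrate dehydrogenase, with 102 and 33.9. In lipid efflux and storage 5 of 23 genes compared were more than 2-fold lower, among them Plin2 (465 and 218 FPKM), Abcg1 (23.6 and 10.3) and Nceh1 (91.1 and 40.3), and 3 more than 2-fold higher, including the cholesterol exporter Abca1 (2.69 and 10.4), against 5.29% lower and 7.71% higher of all genes compared. Cytosolic ribosomal genes and nuclear genes of respiration were mostly lower by less than 2-fold, whereas 9 of the 13 genes of mitochondrial DNA were above 0, with a median log2 ratio of 0.12. The summed FPKM of these 13 genes was nevertheless lower in replicate 2, at 25932 and 23243, and the abundant mt-Co1 and mt-Co3 were both lower. Of all 11148 genes compared 5447 were above 0. The median log2 ratio was -0.49 over 78 cytosolic ribosomal genes, of which 4 were above 0, and -0.60 over 77 nuclear genes of oxidative phosphorylation, of which 6 were above 0. Only Rps28 (54.5 and 20.7 FPKM) in the former and Atp5s, Ndufb5 and Uqcr11 in the latter were more than 2-fold apart. These are short genes, with a median implied length of 2470 and 2153 bases, and the ratio of all genes moved with length as given above; the part of length in these medians was not tested.

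**Figure D5:**
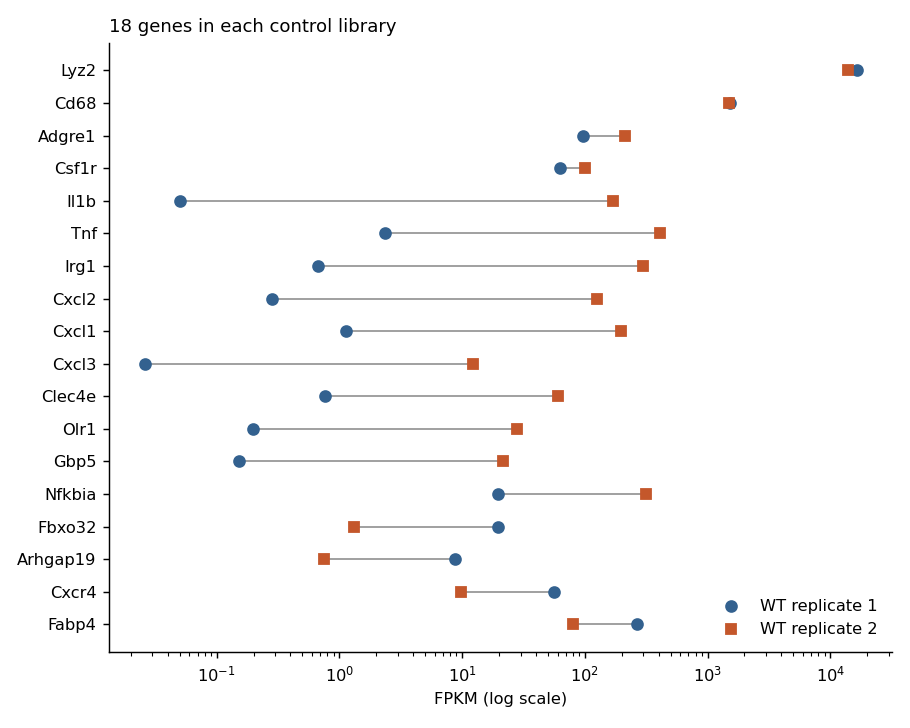
FPKM (x axis, log scale) of 18 genes (y axis) in WT replicate 1 (circles) and WT replicate 2 (squares). The circle and square of Lyz2 and of Cd68 nearly coincide, those of Il1b (0.0500 and 170 FPKM) lie furthest apart, and Fbxo32, Arhgap19, Cxcr4 and Fabp4 are higher in replicate 1.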

How the data were processed

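The 2 RNA-seq libraries labelled WT were used. Per the labels and the study's methods, the authors aligned reads with HISAT2 2.0.4 and quantified genes with StringTie 1.3.3b, both from the submitters' processing notes. The authors deposited whole-number raw counts per gene, not normalised, and FPKM beside them. The implied gene length differed between the libraries by at most 0.00352%, so the deposited FPKM is scaled by the library total alone. The notes name mm39, but 27699 of 34267 gene identifiers shared with GENCODE M21 had their start and end on GRCm38, and positions are given on that build. Whether counting used the strand is not given in the sources used here, and genes that overlap may hold reads of each other.

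Log2 ratios were computed from counts over library totals, with exact 95% Clopper-Pearson counting intervals, for genes with a mean count of at least 20. A gene was called at over 2-fold. With 1 group of 2 libraries no test between groups was run. A chi-square of the counts over genes, divided by its degrees of freedom, was 88.1, so neither library is a copy of the other. The ratio code was tested on simulated data. Folds against no count use a floor of 3 counts. BCV came from edgeR 4.0.16 in R 4.3.3 with TMM factors of 1.01 and 0.990. Fold changes, p-values and q-values of the authors' own comparison were not used.

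Genes named were the 4 markers, G3bp1, G3bp2, Qk, Lrp1, Dync1h1 and Igf2r, the 20 highest by mean FPKM, up to 6 highest and 4 most different members of each list with its members under 1 FPKM, and the 10 genes furthest apart in each direction at a mean count of at least 100; any other gene, such as Gapdh, was chosen after its values were seen. Lists were written by hand, and the members and lists were chosen with earlier results of these data known. Symbols of 8 genes were matched by another name. Alternatives were other thresholds, filters, scalings and lengths, and each library left out in turn. Some items are not reported here.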

Additional observations from a re-analysis of the deposited data

How the results depend on the processing

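No paired analysis was possible because 1 group of 2 libraries was used and no test between groups was run. The number of genes at 1 FPKM or more ranged from 9044 to 9073 with either library left out. The share of FPKM in the 100 most abundant genes ranged from 49.96% to 53.3% in the same way, was 37.9% of counts when counts replaced FPKM and 45.7% with the principal transcript length, chosen after seeing the data. The number of lists with a median percentile over 75 was 29, and 26 to 28 with either library left out. The median percentile of chemokines fell by 34.1 without replicate 2. The number of genes over 2-fold apart was 1449, and it was 4722 with no filter and 0.5 counts added, 948 at a mean count of at least 100, 3509 at over 1.5-fold and 357 at over 4-fold. Of these, 2315, 1703 and 299 were higher with no filter, at 1.5-fold and at 4-fold, and 2407, 324, 1806 and 58 were lower with no filter, at 100 counts, at 1.5-fold and at 4-fold. Fewer or more genes pass by construction. TMM and DESeq2 factors gave 1449 and 1448 genes, with 895 and 867 of them higher. BCV was 0.373 with no filter and 0.364 with DESeq2 factors. The cause of the length dependence was not tested. With 2 libraries, a difference in the culture and one in the library cannot be told apart, and each level for replicate 2 of an inflammatory gene rests on that library alone.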

Other observations

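Gene groups outside the classes above were also read from the libraries. Of 336 solute carrier genes 128 reached 1 FPKM and 122 had no count in either library. The highest was Slc25a5, the mitochondrial carrier of ADP and ATP, with 255 and 190 FPKM, followed by the haem transporter Slc48a1 with 94.5 and 101 and the zinc transporter Slc39a1 with 75.5 and 120. More than 2-fold apart were 22 of 154 carriers higher and 5 lower in replicate 2, against 7.71% and 5.29% of all genes compared. Slc7a11, which imports cystine, had 139 and 2072 counts, and Slc7a2, which imports arginine, had 156 and 1366.

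Of 78 histone genes 55 were under 1 FPKM, and Hist1h2bc, with 432 and 234 FPKM, and Hist1h1c, with 223 and 142, were the highest. Replication-dependent histone RNAs mostly lack a poly(A) tail, and how the library kit selected RNA is not given in the sources used here. Of 1104 olfactory receptor genes 1093 had no count, and 2 reached 1 FPKM: Olfr111, with 56 and 80 counts, and Olfr110, with 27 and 22. The Ms4a membrane protein family was led by Ms4a6d, with 99.4 and 143 FPKM, and Ms4a4c had 25 and 191 counts. Among genes of osteoclasts and cell fusion, Cd9 had 784 and 691 FPKM, Dcstamp 3.84 and 6.85, and Calcr and Oscar no count.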
